A study of Homo sapiens with 6 samples.

Results

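Cytochromes P450 are haem-containing monooxygenases that insert oxygen into drugs, fatty acids, sterols, steroid hormones and the vitamins A and D. Most sit in the endoplasmic reticulum and take electrons from P450 oxidoreductase (POR), while the mitochondrial members are fed by ferredoxin. The liver is the main site of the drug-metabolising and bile acid-forming members, and many P450 genes are switched by ligand-activated factors such as the aryl hydrocarbon receptor (AHR), the pregnane X receptor and the vitamin D and retinoic acid receptors.

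The P450 family was taken as every probe whose annotated gene symbol is CYP followed by a family number, a subfamily letter and a member number, leaving out CYP51A1, the sterol demethylase, which has 1 probe here; no matching probe was of a pseudogene. This gave 65 probes of 51 genes, out of 28264 probes and 19090 named genes on the array. The study compared 3 single-colour Cy3 arrays of Hep3B cells transfected with CCN5 and 3 arrays of Hep3B cells transfected with vector, which the sample titles name GFP. CCN5, also called WISP2, is a secreted matricellular protein, and Hep3B is an established line derived from a human hepatocellular carcinoma. The cells of all 6 arrays were grown in DMEM with serum. No array of untransfected cells was analysed here, so a change in one group cannot be told from the opposite change in the other. The labels give neither the time after transfection nor whether the replicates were separate cultures, so the p-values cover the scatter among these arrays and no more, and that scatter may be technical.

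Values are deposited linear intensities unless a log2 difference is named. Differences are arrays labelled CCN5 minus arrays labelled vector on the quantile-normalized log2 scale, with the standard error (SE) from limma, and adjusted p-values are Benjamini-Hochberg values from limma over all 28264 probes. The signal percentile of a probe is its rank among all probes by mean normalized signal. It ranks probes by brightness, which also depends on the probe itself, so that it is no measure of transcript number and shows no order of levels between genes. A gene with several probes is given by the brightest one. Probe sequences were not used here, so for close relatives (the CYP1A, CYP3A, CYP2A, CYP4F and CYP11B genes) signal from one gene and from its neighbour cannot be told apart.

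The CCN5 probe went against the labels. It read 673, 672 and 619.5 on the arrays labelled CCN5, against 835, 836 and 880.3 on those labelled vector. Its log2 difference was -0.34 (SE 0.09), with an adjusted p of 0.151 from limma and a two-sided p of 0.1 by exact permutation, the lowest value a design of 3 and 3 arrays allows. As the sequence of this single probe was not used here, whether it reads the transfected CCN5 could not be checked. Every direction below therefore rests on the labels alone. The markers of the labelled line and of other cell types were read only as brightness ranks, which do not identify a cell type. Of 15 measured hepatocyte and hepatoma markers 14 lay below the 50th percentile of signal, with albumin (ALB) at percentile 12.2 and alpha-fetoprotein (AFP) at 26.7. Of 9 squamous epithelial markers 8 lay above it, with the keratin KRT5 at 98.4 and S100A2 at 99.99. The summed signal of the hepatocyte markers was 2552 to 3318 on the arrays labelled CCN5 and 2736 to 3415 on those labelled vector, and that of the squamous markers 489745 to 541052 and 484067 to 517424, most of it from S100A2. At an unadjusted p under 0.05 there were 0 squamous markers higher and 3 lower, beside 8.62% and 10.4% of all probes. The 3 lower were KRT14 at -0.62 (SE 0.11), KRT16 at -0.51 (SE 0.11) and IVL at -0.29 (SE 0.12), and KRT5 stood at 0.40 (SE 0.17). The hepatocyte, leukocyte and fibroblast lists also had 0 higher and 3 lower each. The endothelial list had 0 and 1, and that of steroid-producing cells 1 and 0. Of 5 markers of steroid-producing cells 0 reached the 50th percentile. Leukocyte markers (2 of 7 above the 50th percentile), fibroblast markers (2 of 8) and endothelial markers (1 of 5) were mostly dim as well. The part of these markers in the P450 values was not tested.

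Promoters are shown for the 5 P450 genes that passed an adjusted threshold in any of the fits described below, and for CYP1A2, the head-to-head neighbour of CYP1A1. They were chosen after the values were seen. Each window runs from 250 bases before to 50 bases after a RefSeq transcription start on GRCh38.p14, 5′ to 3′ on the gene's strand. Capitals mark 3 motifs searched on both strands: GCGTG, the core of the xenobiotic response element bound by AHR with ARNT, TATAAA, the TATA box, and AGGTCA, a half-site of nuclear receptors. Where TATAAA matched on both strands, the matches overlap.
CYP1A1 promoter (GRCh38.p14, chr15:74725479-74725778, minus strand): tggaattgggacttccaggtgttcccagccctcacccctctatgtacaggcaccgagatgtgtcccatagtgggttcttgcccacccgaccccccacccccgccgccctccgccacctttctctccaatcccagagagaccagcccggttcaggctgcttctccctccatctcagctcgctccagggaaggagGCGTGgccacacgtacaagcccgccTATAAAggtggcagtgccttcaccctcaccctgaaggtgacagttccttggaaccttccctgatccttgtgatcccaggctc
CYP1A2 promoter (GRCh38.p14, chr15:74748595-74748894, plus strand): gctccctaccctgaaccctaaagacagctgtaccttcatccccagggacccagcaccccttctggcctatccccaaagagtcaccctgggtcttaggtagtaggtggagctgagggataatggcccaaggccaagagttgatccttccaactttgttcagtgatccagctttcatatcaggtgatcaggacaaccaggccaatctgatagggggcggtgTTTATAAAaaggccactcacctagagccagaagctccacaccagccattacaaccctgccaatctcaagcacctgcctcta
CYP3A5 promoter (GRCh38.p14, chr7:99679947-99680246, minus strand): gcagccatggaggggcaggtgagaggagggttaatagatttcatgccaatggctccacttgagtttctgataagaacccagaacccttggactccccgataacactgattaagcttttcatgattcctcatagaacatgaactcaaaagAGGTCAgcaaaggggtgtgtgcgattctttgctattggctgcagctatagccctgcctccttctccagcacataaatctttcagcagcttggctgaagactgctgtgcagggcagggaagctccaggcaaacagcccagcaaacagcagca
CYP39A1 promoter (GRCh38.p14, chr6:46652769-46653068, minus strand): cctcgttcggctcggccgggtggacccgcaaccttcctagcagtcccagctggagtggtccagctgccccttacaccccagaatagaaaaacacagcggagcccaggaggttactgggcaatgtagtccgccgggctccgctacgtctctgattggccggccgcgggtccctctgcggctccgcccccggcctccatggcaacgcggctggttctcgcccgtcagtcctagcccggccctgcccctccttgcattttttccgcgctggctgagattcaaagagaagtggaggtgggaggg
CYP27C1 promoter (GRCh38.p14, chr2:127220250-127220549, minus strand): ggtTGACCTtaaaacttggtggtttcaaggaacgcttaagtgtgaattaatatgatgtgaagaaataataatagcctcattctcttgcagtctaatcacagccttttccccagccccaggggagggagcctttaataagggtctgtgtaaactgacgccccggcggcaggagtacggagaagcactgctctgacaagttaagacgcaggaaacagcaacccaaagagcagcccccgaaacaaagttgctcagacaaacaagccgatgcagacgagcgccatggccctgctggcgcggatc
CYP26B1 promoter (GRCh38.p14, chr2:72147813-72148112, minus strand): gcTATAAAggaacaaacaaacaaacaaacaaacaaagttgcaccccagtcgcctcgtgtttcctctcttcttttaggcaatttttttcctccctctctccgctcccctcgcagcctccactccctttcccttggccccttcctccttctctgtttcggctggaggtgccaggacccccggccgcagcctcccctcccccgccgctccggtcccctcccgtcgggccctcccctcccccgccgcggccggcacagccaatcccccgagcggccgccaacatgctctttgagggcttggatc

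The CYP1A1 window holds GCGTG, starting 57 bases before the transcription start, and TATAAA starting 32 bases before it. CYP1A2 holds TATAAA near the same place, starting 29 bases before the start, and no GCGTG in this window. In the CYP3A5 window AGGTCA starts 101 bases before the start. CYP27C1 has 2 listed starts, and in the window shown AGGTCA lies on the opposite strand, its first base 247 bases before the start. The window shown for CYP27C1 holds no GCGTG, while that of its other start, not shown, does. CYP26B1 holds TATAAA 248 bases before the start, while CYP39A1 holds none of the 3 motifs. Over all 35116 promoter windows in the table GCGTG was found in 36.5%, TATAAA in 11.5% and AGGTCA in 13.8%. Of the 50 windows of 37 P450 genes in the table, 24% held GCGTG, 34% TATAAA and 28% AGGTCA. These matches describe letters in a window only.

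No P450 gene passed the test over all probes. Of the 65 probes 0 were called at an adjusted p under 0.05, against 0% of all probes in either direction, and the lowest adjusted p was 0.11 (CYP3A5). At an unadjusted p under 0.05, 5 P450 probes were higher with the CCN5 label, which is 7.69% of them, against 8.62% of all probes. On the lower side 10 P450 probes, or 15.4%, met it, against 10.4% of all probes. The groups did not overlap on the normalized scale for 7 higher probes (10.8%, against 11.8% of all probes) and for 10 lower ones (15.4%, against 14.8%). These shares were not tested against each other, and most lie near those of the whole array. Of the 51 genes 16 were above 0 and 35 below, with a median log2 difference of -0.06 and a range of -0.77 to 0.80, beside a median of -0.01 over all 19090 genes. With the arrays centred on their medians in place of quantile normalization the P450 split became 21 above and 30 below. Genes below 0 went to 40.0% of all genes with median centring, against 51.9% with quantile normalization. With median centring the median was 0.06 over all genes and -0.03 over the P450 genes.

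Without the dimmer 50% of probes, 20 P450 probes of 20 genes remained in the fit and 4 passed. CYP1A1 was called higher (adjusted p 0.0291), beside 3.06% of the 14132 probes. CYP39A1 (adjusted p 0.0307), CYP27C1 (0.0332) and CYP26B1 (0.0469) were called lower, beside 4.01%. With a trended, robust variance over all probes 1 P450 probe passed, that of CYP3A5 (lower, adjusted p 0.0445), beside 1.19% of all probes lower and 0.665% higher. No other alternative run called a P450 gene, and each of these 5 genes kept its sign in each alternative fit that held its brightest probe.

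**Figure D1:**
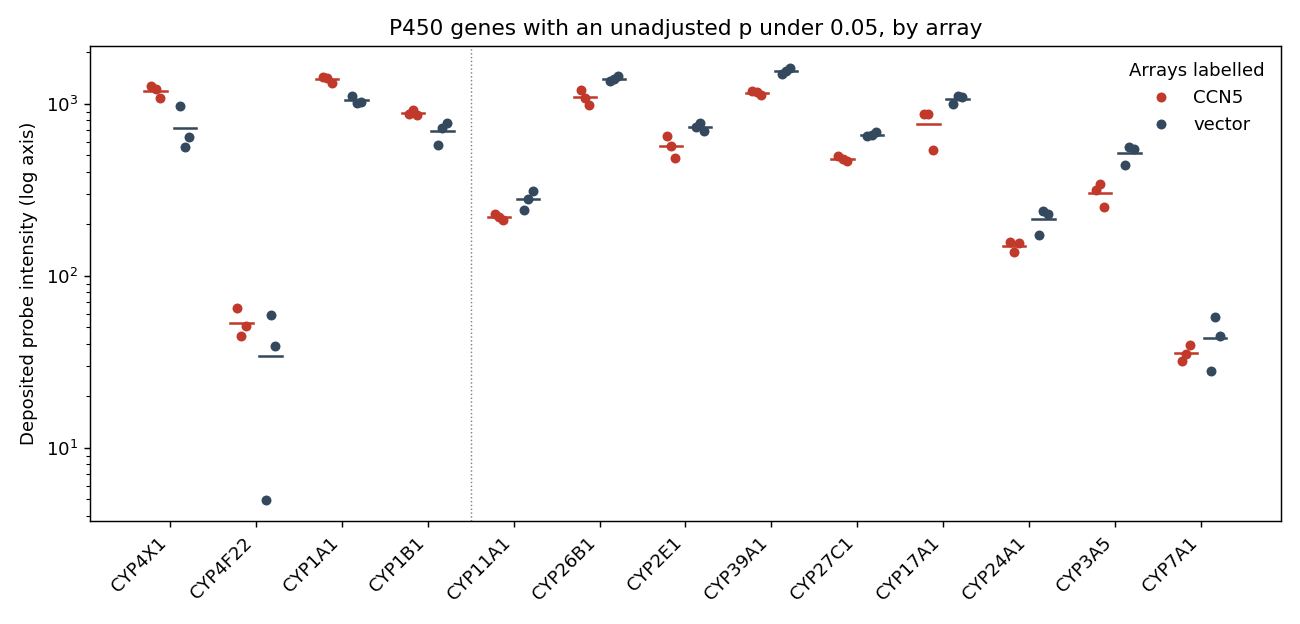
Deposited intensity (log axis) of the 13 P450 genes with an unadjusted p under 0.05, with 1 point per array, a bar at the mean of 3, and the arrays labelled CCN5 left of those labelled vector. The 4 genes left of the dotted line were higher with the CCN5 label and the other 9 lower. CYP4F22 and CYP7A1, both dim, are the genes whose deposited points overlap.

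The drug-metabolising members were led by CYP1A1 and CYP1B1, which were both higher with the CCN5 label, and CYP3A5, which was lower. CYP1A1 oxidises polycyclic aromatic hydrocarbons and is the classic AHR target. It read 1422, 1412 and 1326 on the arrays labelled CCN5, against 1102, 1005 and 1028 on those labelled vector. All 3 values with the CCN5 label thus lay above all 3 with the vector label, a log2 difference of 0.44 (SE 0.09, 95% interval 0.22 to 0.66), or 1.36-fold, with an adjusted p of 0.121 from limma. CYP1B1, an AHR target of tissues outside the liver that also hydroxylates oestradiol, read 872, 924 and 863 with the CCN5 label, against 577, 721 and 774 with the vector label. These groups did not overlap either, though vector replicate 1 lay below the other two, and the log2 difference was 0.39 (SE 0.12, adjusted p 0.175).

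The third CYP1 gene did not share this direction. CYP1A2, the caffeine-oxidising enzyme of the liver, read 65835, 60881 and 60724 on the arrays labelled CCN5, against 62217, 64634 and 68600.0 on those labelled vector. The groups overlapped, with a log2 difference of -0.14 (SE 0.10, 95% interval -0.38 to 0.11). Its only probe lay at percentile 98.8 of signal, and as the probe's sequence was not used here, what it measures could not be checked. The difference between CYP1A1 and CYP1A2 in their response was not tested.

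CYP3A5 is the polymorphic drug-metabolising CYP3A enzyme that is also made outside the liver. It read 314, 343 and 251 on the arrays labelled CCN5, against 439, 558 and 544 on those labelled vector. The groups lay well apart, at a log2 difference of -0.73 (SE 0.14, 95% interval -1.07 to -0.39), or 1.66-fold lower, with an adjusted p of 0.11 from limma. Its 2 dimmer probes gave -0.28 and -0.35, the same sign at a smaller size. The other genes of the CYP3A cluster on chromosome 7 lay below the 25th percentile of signal. CYP3A4, the main drug-metabolising P450 of adult liver, stood at -0.10 (SE 0.27), CYP3A7, its fetal counterpart, at 0.18 (SE 0.17) and CYP3A43 at -0.06 (SE 0.22). The intervals of all 3 included 0, and the signs of CYP3A4 and CYP3A43 turned in some of the alternatives.

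CYP2E1, which oxidises ethanol and small solvents, was lower with the CCN5 label. It read 652, 569 and 482 there, against 734, 772 and 692 with the vector label, without overlap, and the log2 difference was -0.34 (SE 0.11, adjusted p 0.182). CYP2A6, the nicotine-oxidising enzyme, read 1071, 1270.0 and 935 with the CCN5 label and 1397, 1472 and 1161 with the vector label. These groups overlapped (log2 difference -0.27, SE 0.16). CYP2B6, which is induced through the constitutive androstane receptor, read 2849.5, 2159.5 and 2082 on the arrays labelled CCN5, against 2409.7, 2671 and 2667 on those labelled vector, and stood at -0.13 (SE 0.13). A second, dimmer CYP2B6 probe gave -0.01.

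The remaining xenobiotic members gave no separation on the normalized scale. CYP2A13, an airway enzyme, stood at -0.41 (SE 0.21), and its deposited values, 348 to 378 with the CCN5 label and 399 to 639 with the vector label, did not overlap although the normalized ones did. CYP2C8, which oxidises paclitaxel, stood at -0.34 (SE 0.24), and at -0.078 without CCN5 replicate 1. CYP2A7 stood at -0.09 (SE 0.12), CYP2F1 of the lung at -0.06 (SE 0.15) and CYP2D6, the codeine-activating enzyme, at 0.06 (SE 0.12). Their signal percentiles ran from 24.0 to 45.8. In all, 4 of the 15 xenobiotic genes were above 0 and 11 below, with a median of -0.10, beside 51.9% of all genes below. With median centring 6 were above 0 and 9 below, with a median of -0.02, beside 40.0% of all genes below. Of the 6 genes in the CYP2 cluster on chromosome 19 (CYP2A6, CYP2A7, CYP2A13, CYP2B6, CYP2F1 and CYP2S1) 5 were below 0, and 0 reached an unadjusted p under 0.05.

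**Figure D2:**
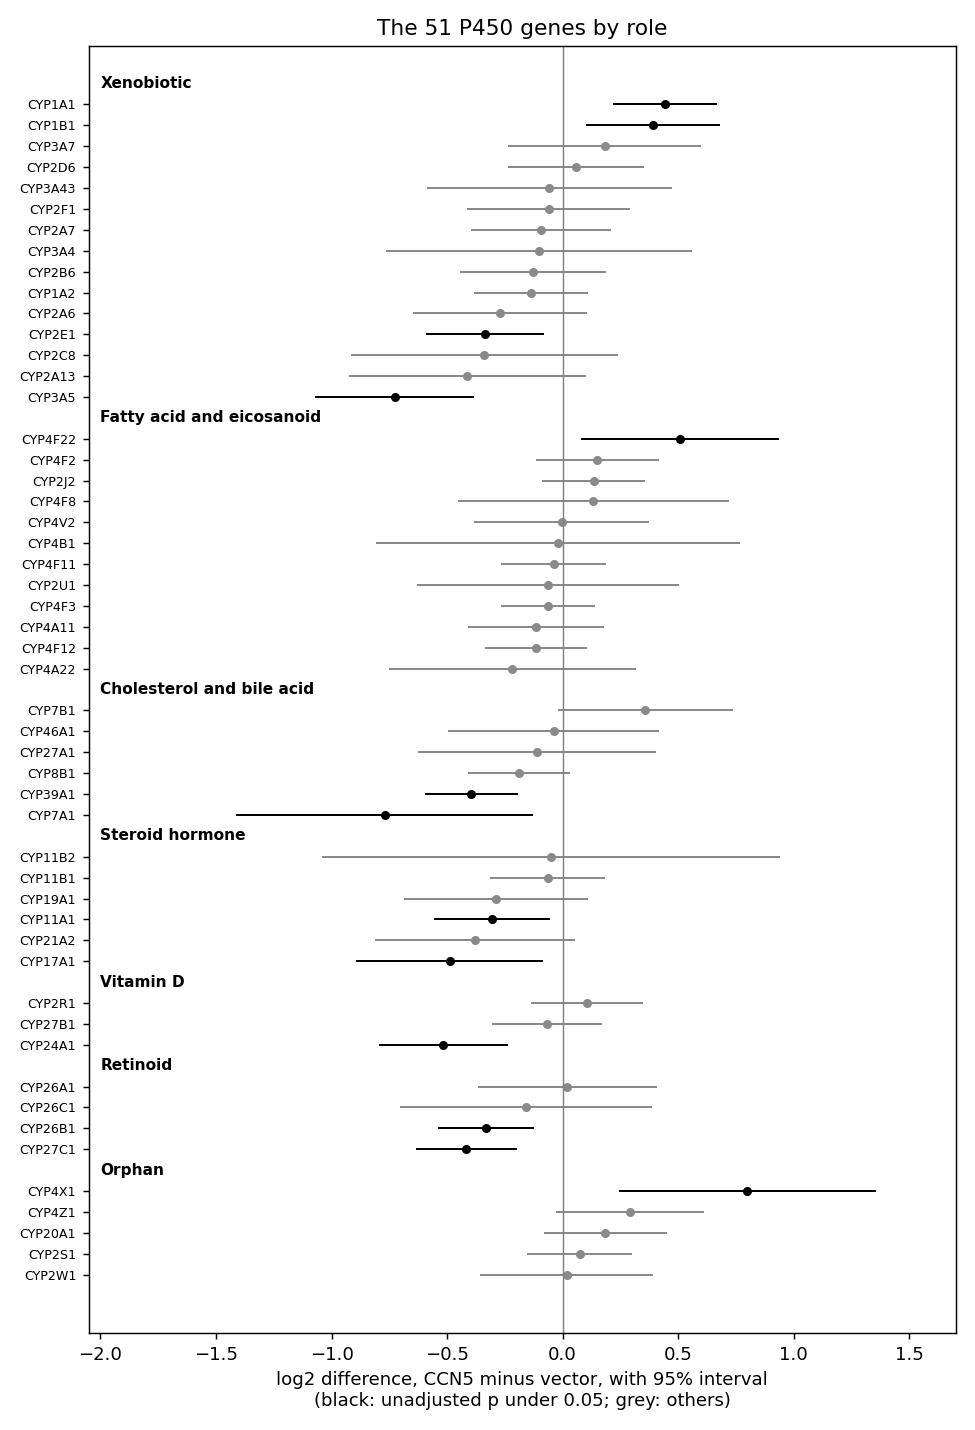
log2 difference, CCN5 minus vector, of the brightest probe of each of the 51 P450 genes (points) with limma's 95% interval (lines), grouped by role, in black at an unadjusted p under 0.05 and in grey otherwise. All 6 steroid hormone genes lie below 0 (4 of 6 with median centring) and all 5 orphan genes above it (CYP2W1 turned in 3 alternatives), while most intervals include 0.

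Among the enzymes of cholesterol and bile acid metabolism, CYP39A1 was lower with the CCN5 label. CYP39A1 hydroxylates oxysterols on the way to bile acids. It read 1178, 1176 and 1122 with the CCN5 label, against 1478, 1549.8 and 1621 with the vector label. The groups were tight and apart, with means of 1158 ± 31.6 and 1549.7 ± 71.7 (SD, n = 3 each), a log2 difference of -0.39 (SE 0.08, 95% interval -0.59 to -0.20) and an adjusted p of 0.121 from limma. CYP8B1, which makes the cholic acid precursor, stood at -0.19 (SE 0.09) and read 673, 560.0 and 557 with the CCN5 label, against 647, 765 and 684 with the vector label. Its groups were separate after normalization but overlapped as deposited.

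The other genes of this group showed wide spread or low signal. CYP27A1, the mitochondrial sterol hydroxylase, read 3629, 2472 and 1916 on the arrays labelled CCN5, against 2872, 2751 and 2865 on those labelled vector. The values with the CCN5 label thus spanned those with the vector label (log2 difference -0.11, SE 0.21). CYP7A1, the rate-limiting enzyme of bile acid synthesis, had the lowest value of the family with quantile normalization, -0.77 (SE 0.26, adjusted p 0.205), at percentile 7.53 of signal. As deposited it read 31.8, 34.9 and 39.7 with the CCN5 label and 27.9, 57.8 and 44.6 with the vector label. These groups overlapped, and a second probe gave -0.08. Vector replicate 1 gave the lowest of the 6 deposited CYP7A1 values (27.9) but the highest normalized one (5.76 on the log2 scale). Without that array the CYP7A1 difference was -0.58. The CYP7A1 value ran from -1.02 without CCN5 replicate 2 to -0.19 with median centring, where CYP3A5 was the lowest. CYP7B1, the oxysterol hydroxylase, read 63.6, 62.3 and 62.5 with the CCN5 label and 28.9, 66.2 and 47.4 with the vector label (0.36, SE 0.16). Its vector replicate 1 was the lowest vector value as deposited but the highest after normalization. Without that array the CYP7B1 difference was 0.49. The neuronal cholesterol hydroxylase CYP46A1 stood at -0.04 (SE 0.19).

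All 6 steroid hormone enzymes were below 0, beside 51.9% of all genes. On the deposited scale 5 of 6 were below 0, beside 47.1% of all genes, and with median centring 4 of 6, beside 40.0%. With quantile normalization the median of these 6 enzymes was -0.30, beside -0.01 over all genes. Of the 6, 2 reached an unadjusted p under 0.05, beside 10.4% of all probes lower. CYP17A1, the hydroxylase and lyase that leads to cortisol and androgens, read 872, 868 and 536 on the arrays labelled CCN5, against 995, 1112 and 1099 on those labelled vector. The groups did not overlap, CCN5 replicate 3 lay far below the other two, and the log2 difference was -0.49 (SE 0.17, adjusted p 0.202). The value of CYP17A1 was -0.31 without that array, and ran down to -0.62 over the alternatives. CYP11A1, which cleaves the cholesterol side chain in mitochondria as the entry step of steroid synthesis, read 229, 219 and 209 with the CCN5 label, against 241, 281 and 310.2 with the vector label. These groups stood apart too, with a log2 difference of -0.30 (SE 0.10, adjusted p 0.199).

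CYP19A1, the aromatase that makes oestrogens, read 612, 613 and 639 with the CCN5 label, against 618, 962 and 781 with the vector label. Vector replicate 1 overlapped the arrays labelled CCN5, and the log2 difference was -0.29 (SE 0.16). A second, dim CYP19A1 probe gave -0.37. CYP21A2, the steroid hydroxylase deficient in congenital adrenal hyperplasia, read 94.3, 109 and 80.4 with the CCN5 label and 91.7, 129.6 and 129 with the vector label (-0.38, SE 0.18). CYP11B1 of cortisol synthesis stood at -0.06 (SE 0.10), with dimmer probes at 0.12 and 0.22, and CYP11B2 of aldosterone synthesis at -0.05 (SE 0.41) and percentile 3.54 of signal. The signs of CYP11B1 and CYP11B2 turned in some of the alternatives.

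CYP24A1, which inactivates vitamin D and is a direct target of its receptor, was lower with the CCN5 label. It read 157, 137 and 155 there, against 171, 239 and 228 with the vector label. No value overlapped, and the log2 difference was -0.52 (SE 0.11, 95% interval -0.79 to -0.24) with an adjusted p of 0.131 from limma, at percentile 31.3 of signal. The enzymes that activate the vitamin did not share this size. CYP2R1, which hydroxylates it in the liver, read 735, 653 and 716 with the CCN5 label, against 681, 639 and 689.9 with the vector label (0.11, SE 0.10). CYP27B1, which completes activation in the kidney and in epithelia, stood at -0.07 (SE 0.10).

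CYP27C1 and CYP26B1 were the retinoid enzymes that read lower with the CCN5 label at an unadjusted p under 0.05. CYP27C1, a retinoid desaturase of human skin, read 496, 475 and 464 with the CCN5 label, against 646, 657 and 682 with the vector label. The gap between the groups was wide beside their spread, with means of 478 ± 16.2 and 662 ± 18.3 (SD, n = 3 each), a log2 difference of -0.42 (SE 0.09) and an adjusted p of 0.128 from limma. CYP26B1, which clears retinoic acid, read 1207, 1075 and 979.9 on the arrays labelled CCN5, against 1352, 1391 and 1451 on those labelled vector. Its groups did not overlap (log2 difference -0.33, SE 0.08, adjusted p 0.147). The sister enzymes CYP26A1 and CYP26C1, neighbours on chromosome 10, stood at 0.02 (SE 0.16) and -0.16 (SE 0.22), with overlapping groups.

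Fatty acid and eicosanoid enzymes stood close to 0, with 4 of 12 genes above it, 8 below and a median of -0.03. CYP4F11, which hydroxylates long-chain fatty acids, read 1527, 1611 and 1495 with the CCN5 label, against 1633, 1679 and 1528 with the vector label (-0.04, SE 0.09, 95% interval -0.26 to 0.18). CYP4F12 read 1191, 1122 and 977 with the CCN5 label, against 1245, 1168 and 1246 with the vector label (-0.12, SE 0.09). CYP4V2, a fatty acid hydroxylase mutated in Bietti crystalline dystrophy of the retina, read 1285, 915 and 1305 with the CCN5 label, against 1066, 1274 and 1232 with the vector label, and its difference was -0.0045 (SE 0.16). The groups of all 3 genes overlapped.

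CYP4F2, which hydroxylates leukotriene B and vitamin K, had 3 probes that were all above 0. The brightest read 811, 587 and 653 with the CCN5 label, against 621, 597 and 674 with the vector label, and stood at 0.15 (SE 0.11), with overlapping groups. The second gave 0.46 (SE 0.12), with no overlap between the labels, and the dimmest 0.17. CYP4F22, which makes the very long hydroxylated fatty acids of skin ceramides, stood at 0.51 (SE 0.18, adjusted p 0.206) at percentile 9.40 of signal. As deposited it read 64.7, 44.4 and 50.6 with the CCN5 label and 4.98, 58.7 and 39.0 with the vector label, so the deposited groups overlapped, and the CYP4F22 value ran from 0.19 to 1.27 over the alternatives. CYP2J2, the arachidonic acid epoxygenase of the heart, read 231, 166 and 189 with the CCN5 label and 145, 192 and 201 with the vector label (0.13, SE 0.09). The other genes of this group, CYP2U1, CYP4A11, CYP4A22, CYP4B1, CYP4F3 and CYP4F8, lay between -0.22 and 0.13 with overlapping groups.

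All 5 members without a settled substrate were above 0, beside 48.1% of all genes, though CYP2W1 turned below 0 in 3 of the alternatives. Their median was 0.18, and 1 reached an unadjusted p under 0.05, beside 8.62% of all probes higher. CYP4X1, best known from brain, had the highest value of the family with quantile normalization, while with median centring the dim CYP4Z1 (1.71), CYP11B2 (1.43) and CYP4F22 (1.27) had higher ones. It read 1264, 1214 and 1072 on the arrays labelled CCN5, against 972, 558 and 638 on those labelled vector, without overlap, though vector replicate 1 came close. The log2 difference was 0.80 (SE 0.23, 95% interval 0.25 to 1.35), or 1.74-fold, with an adjusted p of 0.163 from limma, and over the alternatives the CYP4X1 value ran from 0.62 to 1.07. Its neighbour on chromosome 1, CYP4Z1, known from mammary tissue, read 31.8, 32.1 and 38.7 with the CCN5 label and -5.98, 42.0 and 29.7 with the vector label, at percentile 4.07 of signal (0.29, SE 0.13). The CYP4Z1 values as deposited overlapped, and over the alternatives the difference ran from 0.098 with log2(value + 50) to 1.71 with median centring.

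CYP20A1, an orphan enzyme, read 588, 613 and 502 with the CCN5 label and 510.2, 531 and 499 with the vector label (0.18, SE 0.11), with other probes at 0.17 and -0.08. CYP2S1, an AHR-inducible enzyme of epithelia, read 1053, 1075 and 956 on the arrays labelled CCN5, against 1030.4, 988 and 973 on those labelled vector (0.07, SE 0.09). The CYP2S1 groups overlapped, unlike those of CYP1A1 and CYP1B1. CYP2W1, an enzyme of fetal colon and some tumours, stood at 0.02 (SE 0.15) and ran from -0.10 to 0.15 over the alternatives.

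**Figure D3:**
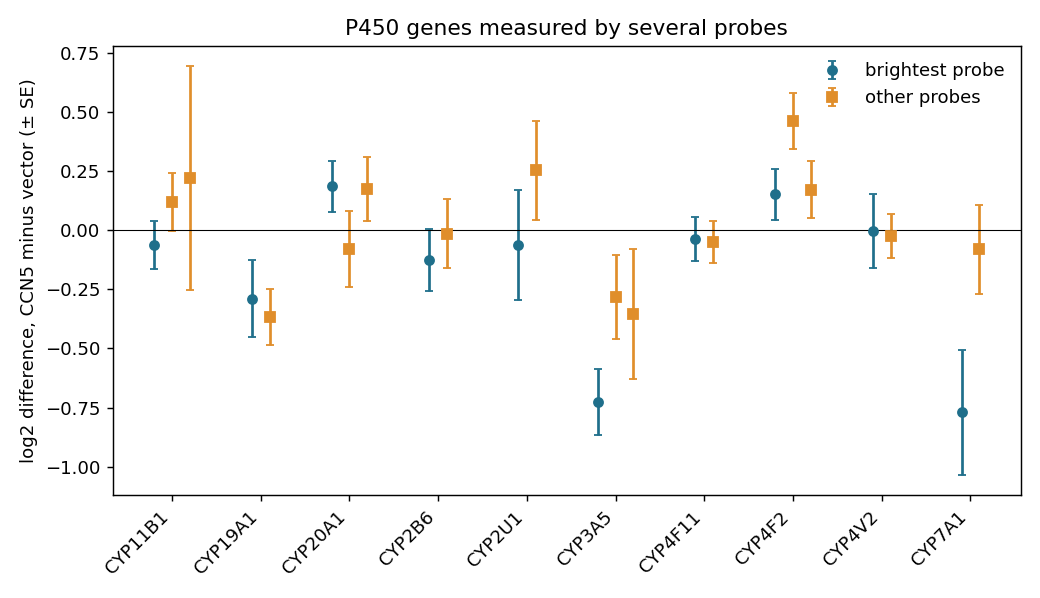
log2 difference, CCN5 minus vector, with SE bars for the 10 P450 genes measured by several probes, the brightest as a circle and the others as squares. The probes of 7 genes share their sign, while those of CYP11B1, CYP20A1 and CYP2U1 lie on both sides of 0.

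Of the 51 genes 12 lay below the 25th percentile of signal, 19 between the 25th and the 50th and 20 above. Against all probes of the same signal decile, 45 genes fell within the 5th to 95th percentile of differences. CYP4X1 and CYP1A1 lay above that band, and CYP3A5, CYP7A1, CYP17A1 and CYP24A1 below it. The spread between replicates was like that of the whole array. The median SD on the log2 scale was 0.17 over the P450 genes for the arrays labelled CCN5 and 0.10 for those labelled vector, against 0.17 and 0.10 over all genes. CCN5 replicate 1 was the lowest of its 3 arrays for 23 of the 51 genes (45.1%), beside 38.8% of all genes.

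**Figure D4:**
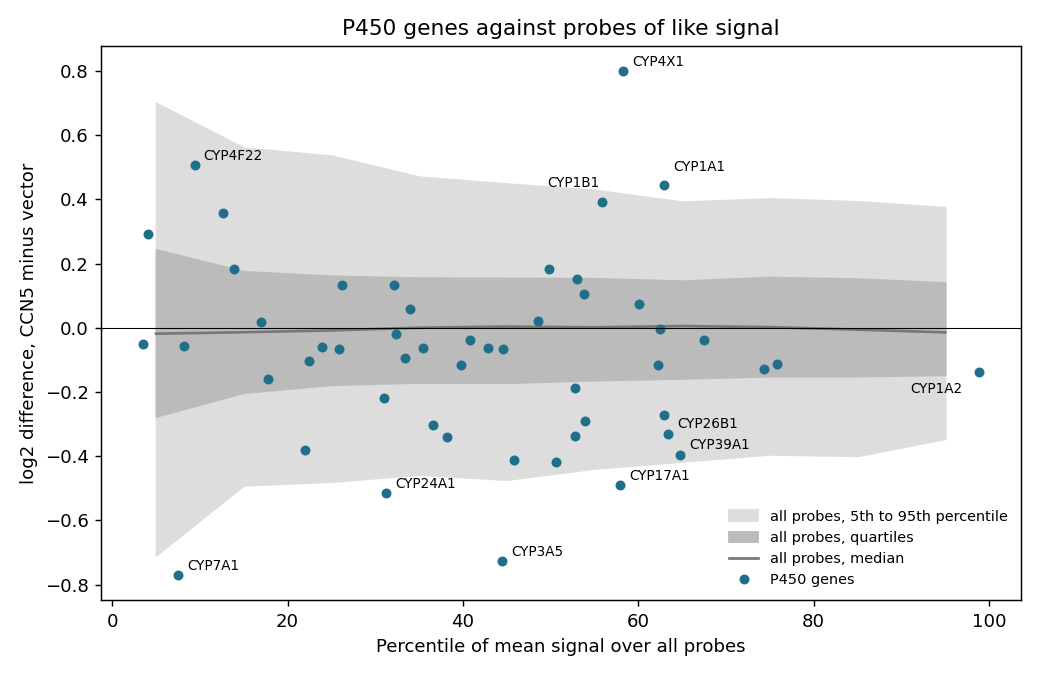
log2 difference, CCN5 minus vector, of the 51 P450 genes (points) against the percentile of mean signal, over bands that hold the middle 50% and the 5th to 95th percentile of all probes in each signal decile. CYP4X1 and CYP1A1 lie above the outer band and CYP3A5, CYP7A1, CYP17A1 and CYP24A1 below it.

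Genes that work with P450 enzymes were read from 8 lists, of which 88 genes were measured. Over all probes 0 of the 88 were called; at an unadjusted p under 0.05 there were 5 above 0 and 20 below it, beside 8.62% of all probes higher and 10.4% lower, and the median was -0.02. The list values given below for median centring stand beside an all-gene median of 0.06 on that scale, with 40.0% of all genes below 0. On the deposited scale these were 0.02 and 47.1%. The electron donors showed no common direction (5 of 9 above 0). POR stood at -0.03 (SE 0.18), FDX2, a mitochondrial ferredoxin, at 0.33 (SE 0.09), the microsomal cytochrome b5 gene CYB5A at -0.37 (SE 0.12), with a dimmer probe at 0.15, its outer mitochondrial membrane relative CYB5B at -0.28 (SE 0.10, second probe -0.28), and the reductase CYB5R3 at -0.15 (SE 0.09). Of the haem synthesis genes 6 of 9 were above 0, with a median of 0.02 (7 of 9 and 0.11 with median centring). The rate-limiting ALAS1 stood at -0.22 (SE 0.11, second probe 0.12), the mitochondrial transporter ABCB10 at 0.32 (SE 0.09, second probe 0.37), the carrier SLC25A38 at 0.15 (SE 0.12) and FECH, which inserts the iron, at 0.08 (SE 0.08), with dimmer probes at 0.02 and 0.48.

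The receptors that govern drug and bile acid enzymes had 6 of 14 genes above 0 and a median of -0.07 (7 of 14 and -0.005 with median centring). Of the 18 genes listed, NR1I2 (the pregnane X receptor), NR1H4, HNF4A and NR1H2 are not among these 14. None of them had a probe named for it alone. The oxysterol receptor NR1H3 stood at -0.31 (SE 0.08), with a dimmer probe at -0.11, and RXRA, its dimer partner, at -0.24 (SE 0.08). The bile acid-induced repressor NR0B2 stood at -0.40 (SE 0.13). ARNT2, a relative of ARNT, stood at -0.39 (SE 0.14) at percentile 16.7 of signal, and its deposited values overlapped. AHR itself, the receptor upstream of CYP1A1 and CYP1B1, stood at 0.07 (SE 0.15), with a dimmer probe at 0.36. Of the other AHR targets 4 of 7 were above 0, with a median of 0.02. TIPARP stood at 0.13 (SE 0.08), with a dimmer probe at 0.31 (SE 0.13), and the repressor AHRR at 0.18 (SE 0.16), with a dimmer probe at 0.28 (SE 0.08). NFE2L2 stood at 0.07 (SE 0.09), with another probe at -0.03, and UGT1A6, a glucuronosyltransferase, at -0.42 (SE 0.15), with another probe at -0.14. The split of this list moved with the scale, to 5 of 7 above 0 on the deposited scale and 6 of 7 with median centring.

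In the retinoic acid pathway 7 of 13 genes were above 0, with a median of 0.03 (10 of 13 and 0.12 with median centring). The retinal reductase DHRS3 read 18830, 21383 and 19483 on the arrays labelled CCN5, against 24959, 26640 and 27742 on those labelled vector, without overlap (log2 difference -0.45, SE 0.10, adjusted p 0.131 from limma). The binding protein CRABP2 stood at -0.44 (SE 0.14), with a second probe at -0.56, the retinol transporter STRA6 at -0.44 (SE 0.14), with a dimmer probe at 0.34, and the receptor RARA at 0.27 (SE 0.09). In the vitamin D list 4 of 7 were above 0, with a median of 0.02 (0.28 with median centring). Its receptor VDR, upstream of CYP24A1, read 2074, 2134 and 1759 with the CCN5 label, against 2373, 2457 and 2425 with the vector label, which did not overlap (-0.27, SE 0.09). The endocytic receptor CUBN stood at 0.45 (SE 0.19) and the dim S100G at 0.54 (SE 0.24), and the deposited values of both genes overlapped.

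Steroid synthesis outside the P450 genes was split, with 9 of 17 genes above 0 and a median of 0.04 (11 of 17 and 0.09 with median centring). This was unlike the 6 P450 genes of that role, though the difference between the lists was not tested. HSD17B3, which makes testosterone, read 1967, 1880.0 and 1832 with the CCN5 label, against 2658, 3134 and 3154 with the vector label, without overlap (-0.64, SE 0.10, adjusted p 0.106 from limma). AKR1C1 stood at -0.35 (SE 0.12, second probe -0.43), SULT2A1, a dim hydroxysteroid sulfotransferase, at 0.59 (SE 0.22) and STAR, which brings cholesterol to CYP11A1, at 0.33 (SE 0.12), with a second, dim probe at -0.57. Of the eicosanoid and fatty acid partners 12 of 14 genes were below 0, beside 51.9% of all genes, and 10 of 14 with median centring or on the deposited scale. At an unadjusted p under 0.05 there were 6 lower, beside 10.4% of all probes, and the median was -0.24. The list was not tested against other genes. The lipoxygenase ALOX5 stood at -0.59 (SE 0.10), and ALOX15B, whose deposited values overlapped, at -0.32 (SE 0.09). The cyclooxygenase PTGS1 stood at -0.48 (SE 0.13). PTGIS, the prostacyclin synthase and itself a P450 by another name, stood at -0.47 (SE 0.16), with a dimmer probe at -0.10. ALOX15 stood at -0.48 (SE 0.20) and TBXAS1 at -0.14 (SE 0.11), with dimmer probes above 0, at 0.07 (SE 0.14) and 0.55 (SE 0.20). Beside these values, the leukocyte markers were below 0 for 7 of 7 genes after quantile normalization, beside 51.9% of all genes, with a median of -0.38. As deposited, the means of the dim PTPRC (69.6 against 63.8) and LYZ (25.3 against 24.9) were higher with the CCN5 label. The summed signal of the leukocyte markers was 4668 to 5723 on the arrays labelled CCN5 and 6492 to 7354 on those labelled vector, most of it from CD68. The part of these markers in the eicosanoid values was not tested.

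**Figure D5:**
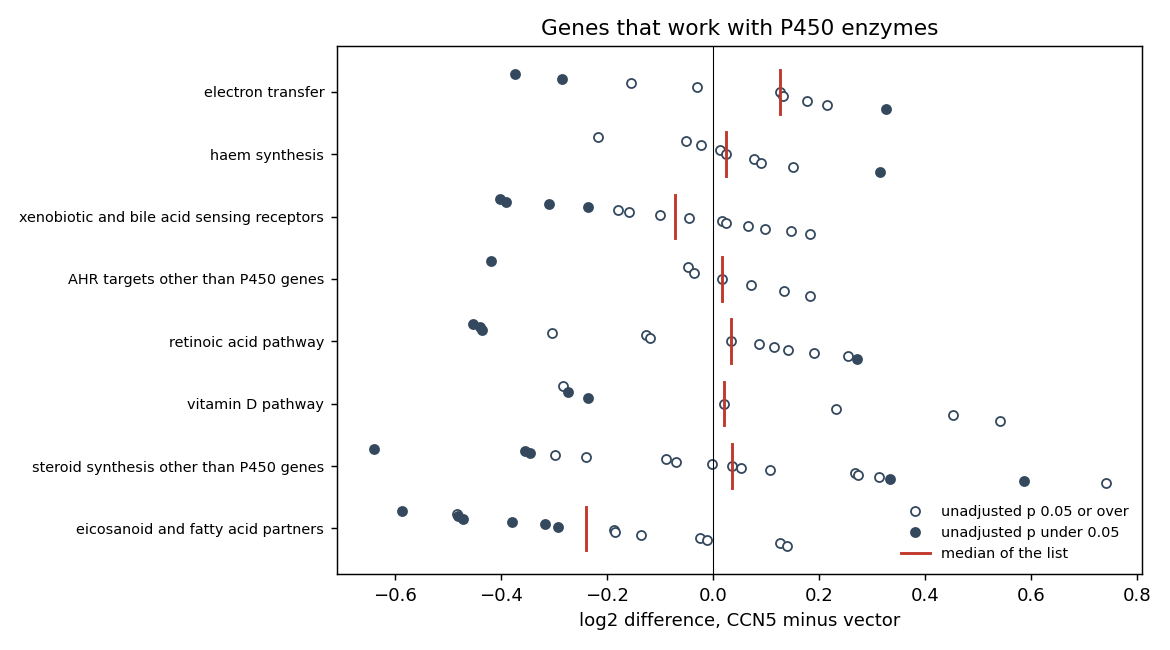
log2 difference, CCN5 minus vector, of the 88 measured partner genes, a row for each list (RXRA and AHRR stand in 2 lists each), with filled points at an unadjusted p under 0.05 and a red line at each list's median. The eicosanoid and fatty acid list has its median at -0.24, and the other 7 medians lie between -0.07 and 0.13.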

How the data were processed

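Total RNA of cells labelled Hep3B was amplified from a T7 oligo(dT) primer and labelled with Cy3, per the labels' protocols. The deposited table holds 1 linear intensity per probe and array; scanner, background correction and normalization: not given in the sources used here. Medians were 504 to 600, and 3 arrays hold intensities below 0 (6 to 1330 probes). No detection flags were used. Precision is limited by the number of arrays.

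Intensities under 1 were set to 1 (5.35% of probes on vector replicate 1, under 0.1% elsewhere), the log2 values of these deposited intensities were quantile normalized, and all 28264 probes were fitted with limma 3.58.1 in R 4.3.3 (lmFit, eBayes, two-sided, no covariates), with Benjamini-Hochberg adjustment and a threshold of 0.05. The fit was tested on simulated data. GEO's platform annotation named 25893 probes, all with an entrez identifier in the RefSeq table (GRCh38.p14), which was used for names and promoter windows; 2371 probes stay unnamed here. Figures were drawn with matplotlib 3.10.9.

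The members and lists were chosen with earlier results of these data known. Values on each array were given for genes at or above the 50th percentile of signal and for the 10 genes of smallest p in each direction. From each partner list 4 genes of smallest p were named, and POR, AHR, ALOX15 and TBXAS1 were added after their values were seen. Alternatives were other scales and offsets, filters on dim probes, array weights, a variance with trend and robust estimation, blocking on the replicate number, a threshold of 0.01, the mean of a gene's probes, every probe counted on its own, and leaving out each array.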

Additional observations from a re-analysis of the deposited data

How the results depend on the processing

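Called probes numbered 59 higher and 180 lower with log2(value + 50), 33 and 151 without the dimmest 25%, 432 and 567 without the dimmest 50%, and 188 and 336 with a trended, robust variance; without 1 array they numbered 0 higher and 0 to 1 lower. P450 genes called were 1 higher and 3 lower without the dimmest 50%, and 1 lower with the trended, robust variance; 0 were called in the other settings. Without the dimmest 50%, 3 of 55 partner genes were called lower (HSD17B3, DHRS3 and PTGS1), beside 4.01% of the 14132 probes. With the trended, robust variance 3 of 88 were called lower (HSD17B3, DHRS3 and ALOX5), beside 1.19% of all probes. The prior df was 4.33 without the dimmest 50% and 2.46 in the fit of all probes, and fewer probes were tested. The part of either in the number of calls was not tested, nor was any other cause. The P450 median was -0.12 without the dimmest 50%, -0.11 with array weights and -0.16 to -0.054 without 1 array, the lowest without CCN5 replicate 1. CCN5 stayed lower throughout and passed without the dimmest 50% (-0.34, adjusted p 0.0486). By their brightest probe or the mean of their probes, 34 of the 51 P450 genes kept their sign in each of the 13 to 15 settings that held them, among them all 13 with an unadjusted p under 0.05; single probes of 3 genes differed in sign. The replicate numbers gave no sign of pairing: deviations of arrays with the same number correlated at -0.08, 0.16 and -0.03. The replicate block gave 0 P450 genes called and a median of -0.06, with CCN5 at -0.34. Without detection flags, no limit between signal and background can be set, which limits the dim P450 genes most.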
